A study of Mus musculus with 4 samples.

Results

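The genes described here encode the proteasome, with its activators, its inhibitor and the chaperones that assemble it, in mouse RAW 264.7 cells cultured with Lactobacillus bulgaricus. They were taken by name: every probe whose accession led to a mouse symbol of the Psma, Psmb, Psmc, Psmd, Psme, Psmf or Psmg series with a number was included, whatever its signal. The rule took 50 genes on 62 probes, of 20971 named genes on the array. Of these, 47 genes are subunits, activators, the inhibitor or chaperones, on 57 probes, and they are called subunits from here on. The other 3 symbols share only the prefix: Psmc3ip, a meiotic recombination factor, Psme2b, a retrocopy of the activator gene Psme2, and Psme3ip1, which encodes a protein that binds PA28-gamma.

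The proteasome is the protease that degrades proteins tagged with ubiquitin. Its 20S core is a barrel of outer alpha rings and inner beta rings, and the beta subunits Psmb5, Psmb6 and Psmb7 carry the cutting sites. The 19S regulatory particle caps the barrel, binds the tagged protein, unfolds it with its ring of ATPases and feeds it in. In immune cells, and under interferon, the inducible subunits Psmb8, Psmb9 and Psmb10 can take the places of the constitutive ones, and together with the PA28 activator made of Psme1 and Psme2 they change which peptides are produced for display on MHC class I.

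RAW 264.7 is a macrophage-like line of BALB/c origin, and L. bulgaricus is a lactic acid bacterium used to ferment milk. The cells were given 10 bacteria per cell (multiplicity of infection 10) and taken after 1, 4 or 6 h; the remaining group was untreated. Each group was 1 array of RNA mixed from 3 cultures, carrying Cy5, hybridised beside a reference carrying Cy3 that per the labels was common to the arrays and mixed from every group's RNA. All 4 arrays lay on 1 slide at positions 1, 2, 3 and 4 in the order untreated, 1 h, 4 h and 6 h, so slide position and time cannot be told apart. Values are log2 ratios of Cy5 over Cy3, and a log2 difference is the ratio of a treated array minus that of the untreated array. With 1 array per group nothing was tested and no p-value is given: the counts below use sizes of 0.5 and 1 on the log2 scale, read against the share of all measured genes past the same size. Between cultures no spread can be had, so precision is limited by having 4 arrays. Between spots on 1 array, probes printed 10 times gave a median SD of the log2 difference of 0.11 at 1 h, 0.11 at 4 h and 0.10 at 6 h. In bulk RNA, fewer cells expressing a gene and less RNA per cell cannot be told apart.

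Of the 47 subunits, 44 had a probe well above background in both channels of all 4 arrays, and their ratios lay close to those of untreated cells at every time. A gene counted as measured in a comparison when it was well above background in both channels of both arrays and its spot was not marked as an outlier, which held for 42 subunits at 1 h, 42 at 4 h and 40 at 6 h. None of them differed from untreated cells by 1 or more on the log2 scale at any time, against 0.376% of all measured genes at 1 h, 0.455% at 4 h and 0.921% at 6 h. None was higher by 0.5 or more, a size that 1.89%, 2.17% and 3.18% of all measured genes reached at 1, 4 and 6 h. The subunits lower by 0.5 or more were Psmb9 alone at 1 h, Psmb9 and Psmc5 at 4 h, and Psmb9 alone at 6 h, against 0.81%, 2.21% and 5.11% of all measured genes. Log2 differences of the subunits ran between -0.60 and 0.45 over the 3 times.

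The SD of the subunits' log2 differences was 0.15 at 1 h, 0.17 at 4 h and 0.20 at 6 h, while that of all measured genes was 0.19, 0.24 and 0.30; the difference in spread was not tested. Their median was 0.01 at 1 h, 0.07 at 4 h and 0.03 at 6 h, against 0.06, 0.00 and -0.01 for all measured genes. At 1 h 23 of 42 subunits lay above 0, where 70.6% of all measured genes did. At 4 h 29 of 42 lay above 0 and at 6 h 23 of 40, against 50.9% and 47.9% of all measured genes. The plot of log2 differences by role shows how narrow this band was.

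**Figure D1:**
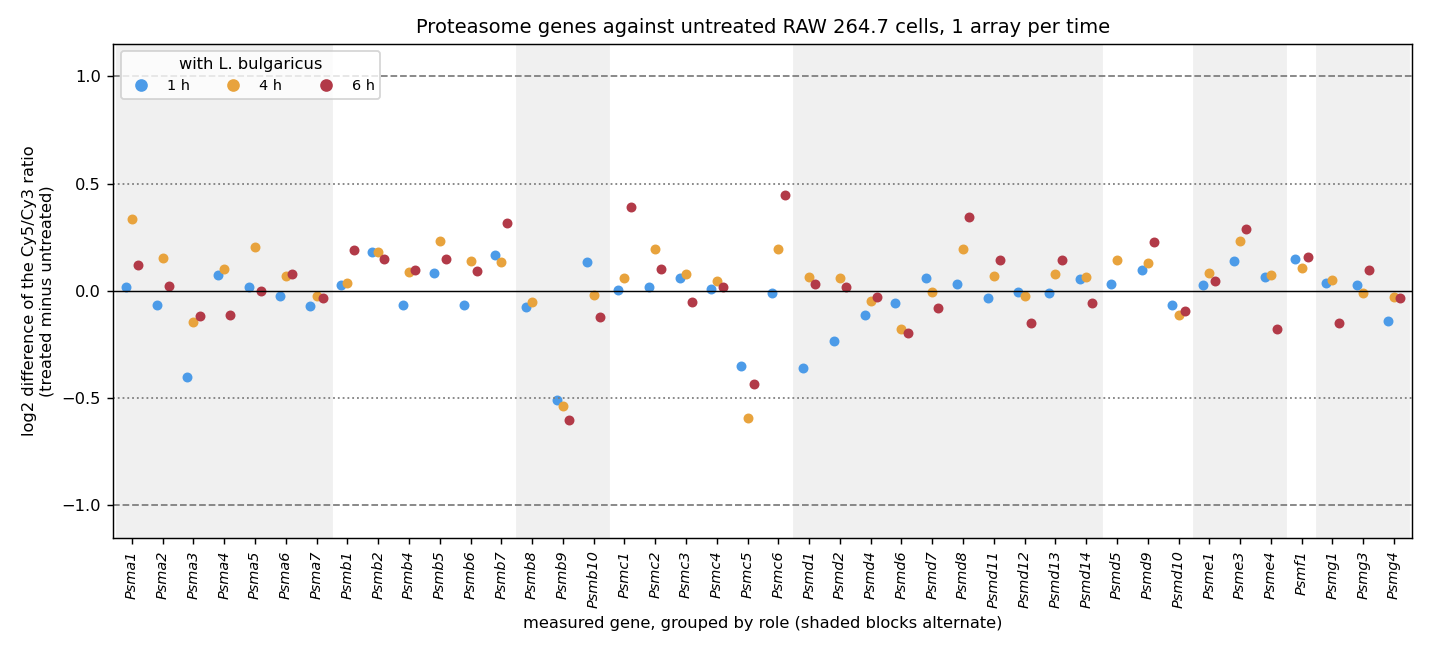
Log2 difference of the Cy5/Cy3 ratio, treated minus untreated, for each measured subunit (horizontal axis, shaded by role) at 1 h (blue), 4 h (orange) and 6 h (red). One point is 1 array against 1 array. Dotted lines mark 0.5 and dashed lines mark 1 on the log2 scale; Psmb9 at each time and Psmc5 at 4 h are the points below -0.5, and none lies above 0.5.

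Of the 47 subunits, 40 were measured at all 3 times. Psma8, a testis form of an alpha subunit, Psmb11, the thymus-specific beta subunit, and Psmg2, an assembly chaperone, had no array on which they were well above background, with processed Cy5 signals between 4.14 and 9.90. Psmb3 and Psmd3 were bright, but the scanner software had marked their spots as outliers, on all 4 arrays for Psmb3 and on the 3 treated arrays for Psmd3. With those spots kept, the log2 differences at 1, 4 and 6 h were 0.12, 0.35 and 0.23 for Psmb3, and 0.04, 0.12 and 0.04 for Psmd3. Psmb8 and Psmd5 lost their 6 h values in the same way and stood at -0.04 and 0.16 with the spots kept. No probe was matched to Psme2 through its accession; 3 probes belong to Psme2b, a near-identical copy of it, so their signal may hold both and is given as uncertain. Psme2b differed from untreated cells by 0.07, 0.11 and 0.03 at 1, 4 and 6 h. Psmc3ip stood at 0.03, 0.12 and -0.11, and Psme3ip1 at 0.20, 0.17 and 0.27.

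The catalytic beta subunits were compared with the inducible forms that replace them. The sequence upstream of the genes is given first for the beta 5 and beta 1 positions. Among these pairs the ratios of Psmb9 and Psmb6 moved farthest apart. The third pair, Psmb10 and Psmb7, is not printed: Psmb7 had no window, and that of Psmb10 held no match to the motifs searched. Each line holds the 250 bases before the transcription start in RefSeq's annotation of GRCm38.p6, 5′ to 3′ on the strand of the gene, with a motif match in capitals.
Psmb8, chr17:34197945-34198194, plus strand: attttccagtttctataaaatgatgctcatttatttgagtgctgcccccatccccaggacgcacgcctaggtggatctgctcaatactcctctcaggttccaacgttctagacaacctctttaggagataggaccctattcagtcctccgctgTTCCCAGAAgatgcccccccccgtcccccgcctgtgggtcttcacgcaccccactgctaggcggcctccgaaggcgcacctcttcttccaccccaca
Psmb5, chr14:54617996-54618245, minus strand: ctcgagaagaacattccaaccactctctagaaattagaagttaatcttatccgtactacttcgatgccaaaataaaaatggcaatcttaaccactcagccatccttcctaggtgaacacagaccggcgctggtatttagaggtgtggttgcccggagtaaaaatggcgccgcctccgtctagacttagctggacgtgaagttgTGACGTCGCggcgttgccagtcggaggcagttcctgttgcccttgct
Psmb9, chr17:34187331-34187580, minus strand: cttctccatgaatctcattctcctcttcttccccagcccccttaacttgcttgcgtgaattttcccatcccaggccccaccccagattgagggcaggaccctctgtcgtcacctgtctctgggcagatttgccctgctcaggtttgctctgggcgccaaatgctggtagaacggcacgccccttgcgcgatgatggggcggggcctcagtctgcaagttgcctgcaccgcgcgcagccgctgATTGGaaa
Psmb6, chr11:70525107-70525356, plus strand: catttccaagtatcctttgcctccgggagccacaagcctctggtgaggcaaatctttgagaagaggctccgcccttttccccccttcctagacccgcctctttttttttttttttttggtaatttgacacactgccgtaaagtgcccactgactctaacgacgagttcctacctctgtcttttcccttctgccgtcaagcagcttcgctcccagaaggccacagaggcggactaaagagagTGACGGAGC

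In the Psmb5 and Psmb6 windows the capitals mark TGACGTCGC and TGACGGAGC, which match TGACNNNGC, the core of the antioxidant response element, and begin 47 and 9 bases before the start. In Psmb8 they mark TTCCCAGAA, a match to TTCNNNGAA of the gamma-activated site, 97 bases before the start. In Psmb9 they mark ATTGG, the CCAAT box read on the other strand, 8 bases before the start. Psmb8 and Psmb9 lie near each other on chromosome 17 and are transcribed in opposite directions. No match to the interferon-stimulated response element (GAAA and GAAA, 2 bases apart) lay in these 4 windows, which says only that these letters are not there.

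Over the 41 windows of the 39 subunit genes in the RefSeq table, searched on both strands and each counted once per motif, TGACNNNGC was present in 5, or 12.2%, against 10.2% of all 32851 windows of the same length. The interferon-stimulated response element was present in 3, or 7.32%, against 2.98%. TTCNNNGAA was in 2, or 4.88%, against 7.02%, and a form of the NF-kB site (GGGA and CC, 4 bases apart) in 9, or 22.0%, against 17.6%. CCAAT was in 14, or 34.1%, against 33.8%. The counts describe these windows, not binding.

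Psmb9, the inducible beta 1 subunit, was the lowest of all measured subunits at 1 h and 6 h and the only one below -0.5 at each time. Its log2 ratio was 0.45 in untreated cells and -0.06, -0.09 and -0.15 after 1, 4 and 6 h. The log2 differences were -0.51, -0.54 and -0.60, or 0.703, 0.689 and 0.659 times the untreated ratio. All 3 treated arrays lay below the untreated one and close to each other, on 1 probe with 1 spot per array.

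The signals behind that ratio were higher on the treated arrays, that of the sample by little at 1 h. The processed Cy5 signal of Psmb9, which holds the sample's RNA, was 2399 in untreated cells and 2496, 3239 and 3156 at 1, 4 and 6 h. Its Cy3 signal, which holds the common reference, was 1705 on the untreated array, then 2810, 3421 and 3331 on the others. Both channels were thus brighter on each treated array, the reference more so. Cy5 was also read without dividing by the reference, after the loess step and quantile normalization of the channels' mean intensity between arrays. Cy3 still enters this reading, called without the reference here, through those steps. Read in this way, Psmb9 stood 0.17, 0.53 and 0.40 above untreated cells at 1, 4 and 6 h, the opposite direction. Centring each array on its median in place of the loess curve also put it above untreated cells at 1 h, by 0.46, where the same centring put the median of all measured genes at 0.86. The direction of Psmb9 therefore rests on the reference channel, which the labels give as common to all 4 arrays; what set its signal was not tested.

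Psmb6, the constitutive beta 1 subunit, had log2 ratios of -0.03 in untreated cells and -0.09, 0.11 and 0.07 at 1, 4 and 6 h, which are log2 differences of -0.07, 0.14 and 0.09. Its Cy5 signal was 17660 in untreated cells and 20910, 19640 and 18190 at 1, 4 and 6 h. Set against Psmb6, the log2 difference of Psmb9 was lower by 0.44 at 1 h, 0.68 at 4 h and 0.70 at 6 h. Without the reference it was higher by 0.21, 0.54 and 0.61. Processed Cy5 signals shifted by 0.06, 0.43 and 0.40 log2 for Psmb9 and by 0.24, 0.15 and 0.04 for Psmb6. By that measure Psmb9 shifted less than Psmb6 at 1 h and more at 4 h and 6 h.

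The other inducible subunits stayed nearer to untreated cells. Psmb8, the inducible beta 5 subunit, had log2 ratios of 0.24 in untreated cells and 0.17 and 0.19 at 1 and 4 h, with Cy5 signals of 15070, 17610 and 17260. Its log2 differences were -0.08 and -0.05. Psmb5, the constitutive beta 5 subunit, had log2 ratios of -0.15 in untreated cells and -0.07, 0.08 and -0.00 at 1, 4 and 6 h, so that every treated array lay above the untreated one, by 0.08, 0.23 and 0.15. These values come from 1 of its 2 probes; the spots of the other, marked as outliers on all 4 arrays, gave -0.03, 0.10 and -0.05 when kept. The log2 difference of Psmb8 was lower than that of Psmb5 by 0.16 at 1 h and 0.28 at 4 h.

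Psmb10, the inducible beta 2 subunit, had log2 ratios of -0.12 in untreated cells and 0.02, -0.13 and -0.24 at 1, 4 and 6 h. Its log2 differences of 0.13, -0.02 and -0.12 lay above 0 at 1 h and below it on the later arrays. Psmb7, the constitutive beta 2 subunit, had log2 ratios of 0.31 in untreated cells and 0.47, 0.44 and 0.62 at 1, 4 and 6 h. Its Cy5 signal was 12100 in untreated cells and 13350, 14130 and 17790 at the same times, and the log2 differences of 0.17, 0.13 and 0.32 all lay above 0. The gap between the log2 differences of Psmb10 and Psmb7 was -0.03 at 1 h, -0.15 at 4 h and -0.44 at 6 h. In each pair and at each time that could be measured, the log2 difference was lower for the inducible subunit than for its constitutive partner. All these differences use the same untreated array, so the times do not repeat each other. The gap of -0.03 for Psmb10 at 1 h was smaller than the spot SD of 0.11. Without the reference that of Psmb9 was instead higher than that of Psmb6 at each time. That of Psmb10 was then higher than that of Psmb7 by 0.03 at 1 h. In processed Cy5 signals Psmb9 shifted less than Psmb6 at 1 h and more at 4 h and 6 h. This compares differences, not levels between probes.

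Psme1, the alpha chain of the PA28 activator, was printed 10 times on each array. Its log2 ratio was -0.03 ± 0.11 in untreated cells, -0.00 ± 0.04 at 1 h, 0.06 ± 0.07 at 4 h and 0.02 ± 0.05 at 6 h (SD over 10 spots of 1 array). The log2 differences of 0.03 ± 0.08, 0.09 ± 0.08 and 0.05 ± 0.08 (SD, 10 spots) were about as large as the spread between spots or smaller. Psmb9 was the only one of the 4 measured immunoproteasome genes past 0.5, and their median was -0.02 at 1 h, -0.04 at 4 h and -0.12 at 6 h, the last over 3 genes.

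**Figure D2:**
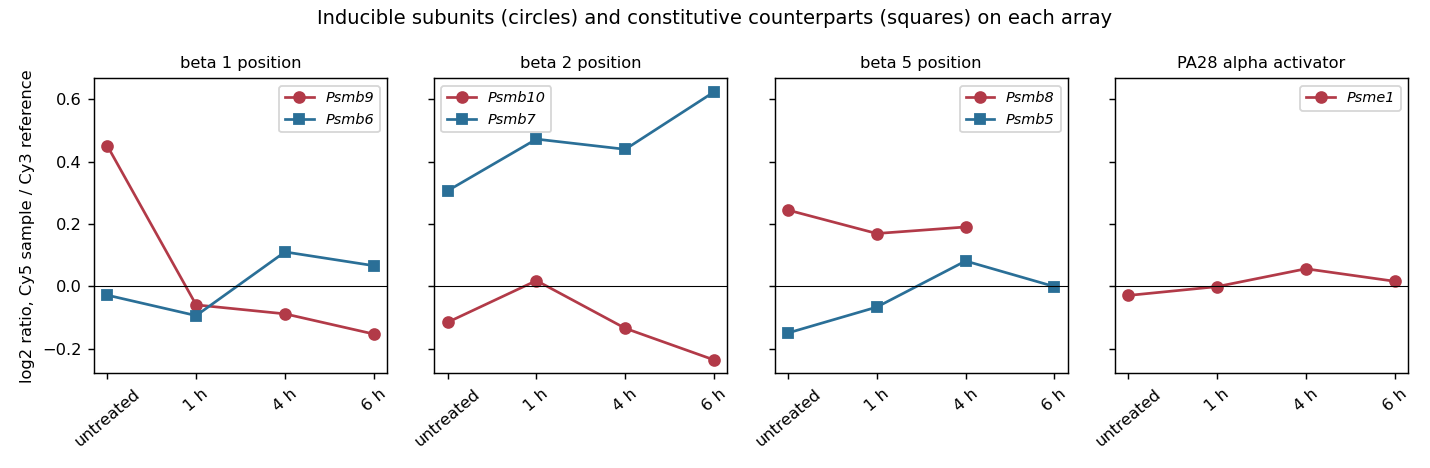
Log2 Cy5/Cy3 ratio (vertical axis) on the arrays of untreated cells and of cells after 1, 4 and 6 h for the inducible subunits (red circles), their constitutive counterparts (blue squares) and the activator Psme1. Psmb9 is between -0.06 and -0.15 on the treated arrays and at 0.45 on the untreated one, while Psmb7 is at 0.62 at 6 h and 0.31 on the untreated array; Psmb8 has no point at 6 h.

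In the constitutive beta ring as a whole, 4 of 6 measured subunits lay above untreated cells at 1 h and 6 of 6 at both 4 h and 6 h, against 70.6%, 50.9% and 47.9% of all measured genes. The medians were 0.05, 0.14 and 0.15. Values at 6 h ran from 0.09 for Psmb6 to 0.32 for Psmb7. Without the reference, 4 of 6 lay above 0 at 4 h and 4 of 6 at 6 h. Medians in that reading were -0.06, 0.12 and 0.11 at 1, 4 and 6 h, against 0.06, 0.05 and 0.04 for all measured genes. With median centring 3 of 6 lay above 0 at 6 h, where all measured genes stood at -0.15. In processed Cy5 signals Psmb2 alone of these 6 shifted below 0 at 4 h and 6 h, at -0.32 and -1.07 log2. Psmb2, the highest of all subunits at 1 h, had log2 ratios of 0.08 in untreated cells and 0.26, 0.26 and 0.23 at 1, 4 and 6 h, which are log2 differences of 0.18, 0.18 and 0.15. Its Cy5 signal was 855 in untreated cells and 629.1, 684.8 and 408.1 at 1, 4 and 6 h, and its Cy3 signal 847.3 on the untreated array, then 568.7, 578.7 and 335.9 on the others. Both channels were dimmer on each treated array, the reference more so, and Cy5 read without the reference put Psmb2 at -0.68, -0.53 and -0.95, the opposite direction.

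The alpha subunits, which form the gate of the barrel, did not share a direction against untreated cells. Of 7 measured, 3 lay above 0 at 1 h, 5 at 4 h and 3 at 6 h, beside the same shares of all measured genes, with medians of -0.03, 0.10 and -0.00. Psma1 was the highest of all subunits at 4 h: its log2 ratio was -0.08 in untreated cells and -0.06, 0.25 and 0.04 at 1, 4 and 6 h, so the 4 h array stood apart, by 0.33 from untreated cells. On that array its Cy5 signal of 12680 lay within the range of the other arrays (12070 in untreated cells to 14090 at 6 h), and its Cy3 signal of 10390 was the lowest of the 4, the others being 12740 to 14310. Without the reference Psma1 stood at -0.02 at 4 h.

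Psma3 had the lowest log2 difference of the alpha ring at each time. Its log2 ratio was 0.08 in untreated cells and -0.32, -0.06 and -0.03 at 1, 4 and 6 h, for log2 differences of -0.40, -0.15 and -0.12. As with Psmb9, both channels were brighter on the treated arrays: Cy5 was 14250 in untreated cells and 22850, 25600 and 28250 at 1, 4 and 6 h, and Cy3 was 12240 on the untreated array, then 26520, 26000 and 28560 on the others. Without the reference Psma3 stood at 0.59, 0.90 and 0.95, the opposite direction.

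Most core subunits had a higher ratio at 4 h than at 1 h, which their processed Cy5 signals did not share. All 7 alpha subunits had a higher ratio at 4 h than at 1 h, by a median of 0.18, with Psma4 lowest at 0.03 and Psma1 highest at 0.32. With the constitutive beta subunits, 12 of 13 core subunits lay above 0 in that comparison, by a median of 0.15, and Psmb7 at -0.03 was the exception. Over all subunits it was 31 of 41 with a median of 0.06, against 37.7% of all measured genes above 0 and a median of -0.05. Without the reference 9 of 13 core subunits lay above 0 with a median of 0.07, where all measured genes stood at -0.01. With median centring none did, with a median of -1.02 where all measured genes stood at -0.83. Processed Cy5 signals of the core moved in both directions between these arrays, from -0.12 log2 for Psma7 to 0.16 for Psma3. None of the subunits differed by 0.5 between 1 h and 4 h, against 0.788% of all measured genes higher and 2.68% lower by that size.

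Between 4 h and 6 h the core had no common direction. In the alpha ring 2 of 7 lay above 0, with a median of -0.13, and in the core 5 of 13, with a median of -0.04. Over all subunits it was 16 of 39, against 46.4% of all measured genes, and none differed by 0.5, against 1.09% higher and 2.28% lower. Of the 40 subunits measured at every time, 18 (45.0%) had their highest treated value at 4 h, 15 (37.5%) at 6 h and 7 (17.5%) at 1 h. Among 10115 genes measured at every time these shares were 22.8%, 29.5% and 47.7%. These comparisons share arrays with those against untreated cells and are the same measurements seen another way.

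The 6 ATPases of the 19S base, which unfold the substrate, included the highest subunit at 6 h and the lowest at 4 h. Their medians were 0.00, 0.07 and 0.06 at 1, 4 and 6 h. Psmc6 was the highest of all subunits at 6 h, with a log2 ratio of -0.31 in untreated cells and -0.32, -0.11 and 0.14 at 1, 4 and 6 h. The untreated and 1 h arrays were alike and the later ones higher, for log2 differences of -0.01, 0.20 and 0.45, the last being 1.36 times the untreated ratio. Its Cy5 signal was 885.2 in untreated cells and 940.5, 1091 and 1183 at 1, 4 and 6 h, while Cy3 was 1224 on the untreated array, then 1334, 1184 and 1088 on the others.

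Psmc5 was the lowest of all subunits at 4 h. Its log2 ratio was 0.63 in untreated cells and 0.28, 0.04 and 0.20 at 1, 4 and 6 h, and all treated arrays lay below the untreated one, by 0.35, 0.59 and 0.44. At 4 h this was 0.662 times the untreated ratio. Both channels of its probe were dimmer on the treated arrays: Cy5 was 3907 in untreated cells and 2763, 1612 and 1346 at 1, 4 and 6 h, and Cy3 was 2656 on the untreated array, then 2261, 1672 and 1163 on the others. The part of that shared loss of signal in the ratio was not tested.

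Psmc1 shows what a change of probe does. Its 6 h log2 difference of 0.39, the runner-up among all subunits, came from the dimmer of 2 probes, with Cy5 signals of 982.3 at 6 h and 1821 in untreated cells. The brighter probe, at 33570 in untreated cells, was marked as an outlier on the 6 h array, and with that spot kept it stood at -0.15. Without the reference the dimmer probe stood at -0.87 at 6 h.

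Among the non-ATPase subunits of the 19S particle, which bind ubiquitin, form the scaffold or, as Psmd14, remove ubiquitin, 10 of 11 were measured. Their medians were -0.02, 0.06 and -0.01 at 1, 4 and 6 h. Above 0 lay 3, 6 and 5 of them, against 70.6%, 50.9% and 47.9% of all measured genes. Psmd8, a lid subunit, was higher on each later array, with log2 ratios of -0.01 in untreated cells and 0.02, 0.19 and 0.33 at 1, 4 and 6 h. Its Cy5 signal went with it, at 8150 in untreated cells and 10550, 11110 and 12620 at 1, 4 and 6 h, while Cy3 was between 9142 and 9540 on the treated arrays and 7794 on the untreated one. The log2 differences were 0.03, 0.20 and 0.35.

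Psmd1, the large scaffold subunit of the base, was low on 1 array only. Its log2 ratio was -0.05 in untreated cells and -0.41, 0.02 and -0.02 at 1, 4 and 6 h, so that the 1 h array stood 0.36 below the untreated one and 0.42 below the 4 h one. Its Cy5 signal of 7412 at 1 h was the lowest of the 4 arrays, and its Cy3 signal of 10830 there was not. Psmd6, also of the lid, had log2 ratios of 0.11 in untreated cells and 0.06, -0.07 and -0.08 at 1, 4 and 6 h, for log2 differences of -0.06, -0.18 and -0.20.

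Of the chaperones that build the 19S base, Psmd9 stood at 0.10, 0.13 and 0.23 at 1, 4 and 6 h. Psmd10, also known as gankyrin, stood at -0.07, -0.11 and -0.09 as a mean of 2 probes that had opposite signs at each time. The activator Psme3, or PA28-gamma, which acts in the nucleus, had log2 ratios of 0.69 in untreated cells and 0.83, 0.93 and 0.98 at 1, 4 and 6 h. Each treated array was above the untreated one, by 0.14, 0.23 and 0.29, with Cy5 signals of 1988 in untreated cells and 2089, 1727 and 1802, and Cy3 signals of 1072 on the untreated array and 1109, 823.9 and 829.4. Without the reference Psme3 stood at 0.10, -0.06 and -0.01. The activator Psme4, or PA200, stood at 0.06, 0.07 and -0.18. Psmf1, the inhibitor PI31, had log2 ratios of 0.21 in untreated cells and 0.36, 0.31 and 0.37 at 1, 4 and 6 h, 0.15, 0.10 and 0.16 above it. The core assembly chaperones Psmg1, Psmg3 and Psmg4 had medians of 0.02, -0.01 and -0.03.

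Both channels of a probe tended to shift together. Over the probes of measured subunits, the processed Cy5 and Cy3 signals shifted in step between the untreated array and the 1, 4 and 6 h arrays, with Pearson correlations of 0.85, 0.97 and 0.97 across 48, 49 and 47 probes, against 0.70, 0.71 and 0.74 across all measured probes. Part of this rests on 1 Psmc2 probe: without it the correlations at 4 and 6 h were 0.88 and 0.92. These describe probes that share arrays and spots, and carry no test. The SD of the log2 shift over subunit probes at 1 h was 0.29 in Cy5, 0.29 in Cy3 and 0.16 in their ratio. At 6 h it was 0.85, 0.87 and 0.22 with that Psmc2 probe, and 0.55, 0.55 and 0.22 without it.

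Some subunit probes were dimmer in both channels of the treated arrays. Those lower by 1 or more on the log2 scale in both were 0 of 48 probes at 1 h, 2 of 49 probes at 4 h and 5 of 47 probes at 6 h, against 0.897%, 2.13% and 4.02% of all measured probes. At 4 h they belonged to Psmc2 and Psmg1, and at 6 h to Psmb2, Psmc2, Psmc5, Psmd10 and Psmg1. No subunit probe was higher by that much in both channels, against 0.224%, 0.238% and 1.25% of all measured probes.

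**Figure D3:**
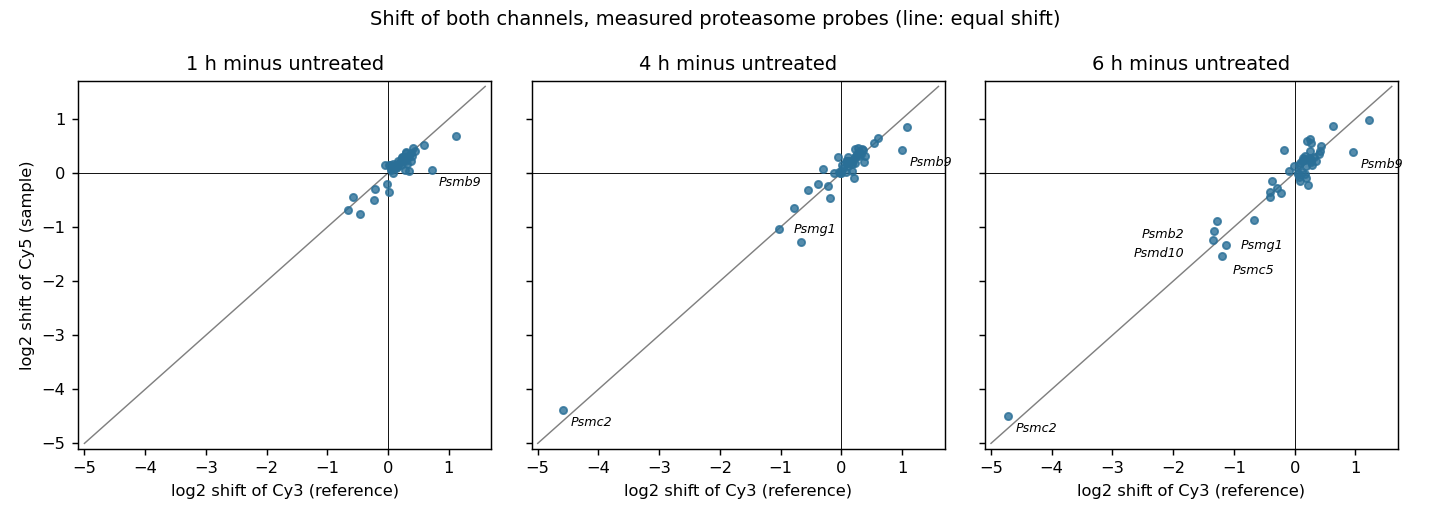
Log2 shift of the processed Cy5 signal (vertical axis) against that of the Cy3 signal (horizontal axis) for each probe of a measured subunit, treated minus untreated array, at 1, 4 and 6 h. The line marks equal shifts; points follow it, 1 Psmc2 probe lies below -4 in both channels at 4 and 6 h, and Psmb9 lies to the right of the line at each time.

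Psmc2, an ATPase of the base, had the lowest of these points. One of its probes had Cy5 signals of 13760 in untreated cells and 2475, 660.8 and 609.2 at 1, 4 and 6 h, the 1 h spot being marked as an outlier. The Cy3 signals of the same spots were 15150 on the untreated array, then 2716, 633 and 577.9 on the others, so at 6 h the sample stood at 4.43% and the reference at 3.82% of the untreated array. Its other probe, for the same transcript, had Cy5 signals of 10520 in untreated cells and 13530, 15510 and 12210 at 1, 4 and 6 h. The ratios did not show this, with log2 differences at 6 h of 0.29 for the probe that lost signal and -0.09 for the one that did not.

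Psmg1 and Psmd12, a lid subunit, show the same split between their probes. The dim Psmg1 probe had Cy5 signals of 482.3 in untreated cells and 391.1, 234.4 and 190.5 at 1, 4 and 6 h, and the bright one between 6425 and 6815 on the treated arrays and 5834 in untreated cells. The dim Psmd12 probe had Cy5 signals of 1205 in untreated cells and 1253, 868.7 and 660.5 at 1, 4 and 6 h, and the bright one between 12880 and 14440 on the treated arrays and 13100 in untreated cells. In each of these genes 1 probe dimmed with the array and the other did not, while the 2 log2 differences at 6 h were within 0.04 of each other. Psmd10 had such a split with unlike ratios. The Cy5 signal of its dim probe was 131.8 in untreated cells and 55.5 at 6 h, and that of its bright one 2406 and 2266. Their log2 differences at 6 h were 0.11 and -0.29. The probes of Psmc2 and Psmc1 also differed at 6 h, as given above. What set these signals was not tested.

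**Figure D4:**
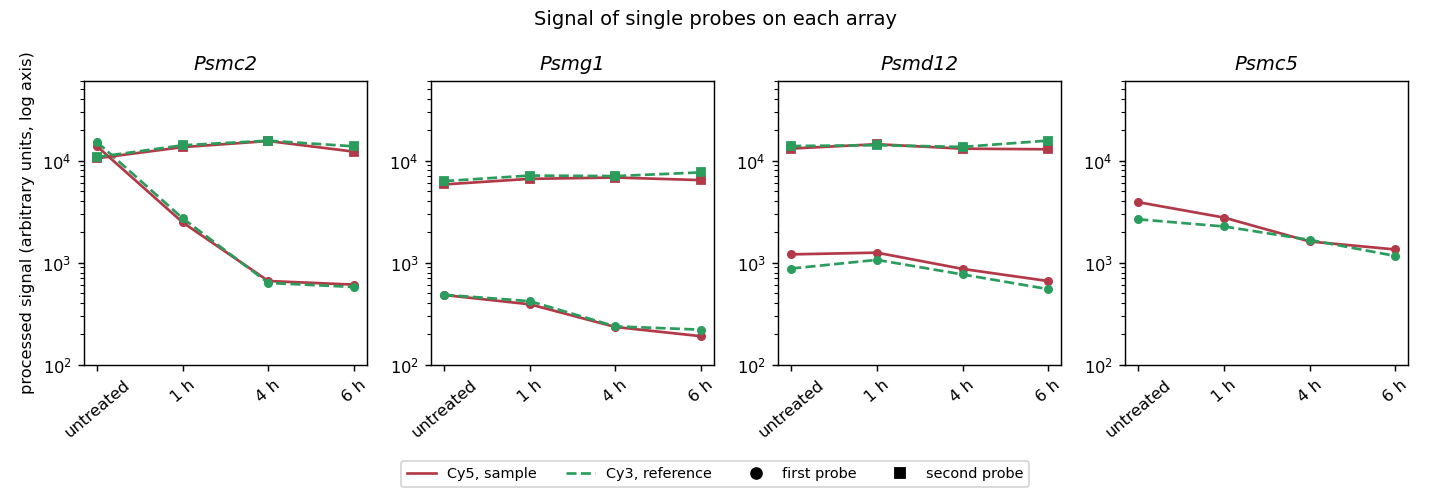
Processed signal (log axis, arbitrary units) on the arrays of untreated cells and of cells after 1, 4 and 6 h for the probes of Psmc2, Psmg1 and Psmd12 and the 1 probe of Psmc5, with Cy5 (sample) as solid red and Cy3 (reference) as dashed green lines. The first Psmc2 probe has a Cy5 signal of 609.2 at 6 h and 13760 on the untreated array, with Cy3 beside it throughout, while the second Psmc2 probe has Cy5 signals between 10520 and 15510.

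Genes that work with the proteasome were read from a list of 28, of which 21, 22 and 22 were measured at 1, 4 and 6 h. Their medians were 0.05, -0.01 and -0.02. Above 0 lay 13, 11 and 9 of them, against 70.6%, 50.9% and 47.9% of all measured genes. None was higher by 0.5, a size that 1.89%, 2.17% and 3.18% of all measured genes reached. Zfand2a, an arsenite-inducible protein associated with the 19S particle, was the only one lower by 0.5 or more, at 4 h and 6 h. At these times 2.21% and 5.11% of all measured genes were lower by that size. Zfand2a stood at 0.23, -0.61 and -0.59. Its Cy5 signal was 1560 in untreated cells and 1872, 770.4 and 603.4 at 1, 4 and 6 h. Nfe2l2, or Nrf2, the factor that binds antioxidant response elements, stood at 0.10, 0.39 and -0.24, with Cy5 signals of 1839 in untreated cells and 2889, 3868 and 1760 at the same times. Zfand5, a ubiquitin-binding activator of the proteasome, stood at 0.06, 0.32 and -0.36, and Akirin2, which carries proteasomes into the nucleus, at -0.02, 0.33 and 0.28. Nfe2l2 and Zfand5 thus had their highest value at 4 h and their lowest at 6 h. Adrm1, the ubiquitin receptor of the 19S particle, stood at 0.31, 0.11 and 0.01, and its Cy5 signal was 50.22 at 6 h, against 305.6 in untreated cells, with a Cy3 signal of 90.83 against 435.

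Nfe2l1, the factor that raises proteasome genes when the protease is inhibited, stood at 0.07, 0.04 and -0.05, and Pomp, the maturation factor of the core, at -0.04, -0.10 and -0.01; both are named after their values were seen. Of 8 genes of the MHC class I pathway that interferon induces along with the immunoproteasome, 7 were measured, with medians of 0.10, 0.10 and 0.01 and none past 0.5 in either direction. Irf1, a factor that drives inducible subunits, stood at 0.10, 0.25 and 0.18, and Nlrc5, the class I transactivator, at 0.15, 0.23 and 0.04. Tap1, the peptide transporter gene next to Psmb9, stood at 0.14, -0.18 and -0.06.

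Markers of cell identity were read beside these values. Of 9 macrophage markers with a probe, 6 were measured at 1 h and 7 at 4 h and 6 h, with medians of 0.02, -0.07 and -0.14 and none past 0.5. The summed Cy5 signal of the 6 measured on every array was 22990 in untreated cells and 25280, 23240 and 26950 at 1, 4 and 6 h. Of 11 intestinal markers, 11, 10 and 10 were measured, with medians of 0.63, 0.51 and 0.55, and Reg3b, a Paneth cell lectin, stood at 4.18, 2.98 and 2.46, while Lct, the lactase gene, stood at -0.45, -1.71 and -0.79. Fabp2, an enterocyte fatty acid binding protein, had log2 ratios of -2.15 in untreated cells and -1.69, -1.96 and -2.39 at 1, 4 and 6 h, and Vil1, or villin, -1.55 in untreated cells and -1.18, -1.19 and -1.23. Both were thus brighter in the reference than in the sample on all 4 arrays, although per the labels the reference was mixed from these groups; the reason was not tested. The summed Cy5 signal of the 10 measured on every array was 3545 in untreated cells and 9440, 6179 and 6247 at 1, 4 and 6 h. Of 6 fibroblast and smooth muscle markers 5 were measured, with medians of 0.35, 0.71 and 0.60 and a summed Cy5 signal of 1298 in untreated cells and 2203, 4174 and 3155 at the same times. Among T and B cell markers Cd3e alone was measured, at 1 h and 6 h, and among endothelial markers Kdr alone. The part of these transcripts in the subunit values was not tested.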

How the data were processed

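RNA of 4 groups was measured on 4 Agilent mouse arrays with 2 channels. The submitters' processing notes name Agilent Feature Extraction 10.5.1.1 as the image software. The deposited files give, per spot, median intensity of spot and background, processed signals that the software had background-subtracted and dye-normalized, and the log10 of Cy5 over Cy3, per the file headers. The deposited series table holds the same log10 ratios. Further steps by the authors are not given in the sources used here.

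Median intensities were corrected with normexp (offset 50) and normalized within arrays by loess in limma 3.58.1 (R 4.3.3), with control and outlier spots at weight 0 and left out afterwards (1.55% to 1.84% of spots were outliers). Replicate spots, then measured probes of a gene, were averaged as log2 ratios. A probe with several spots was measured when at least 0.5 of them were well above background. Signals in the text are processed signals. Values without the reference, or with Cy5 alone, are Cy5 levels after loess and quantile normalization of the channels' mean intensity between arrays. Cy5 was well above background at 49.5% to 51.8% of spots. Accessions without versions named 27655 of 39429 probes through RefSeq GRCm38.p6; 11774 stayed unnamed. The array was annotated on another build, so no probe positions are given. Ratios on each array were printed for the inducible subunits and their counterparts, and for subunits past 0.5. They were also printed for the 3 highest and 3 lowest subunits per time, except Psmc1. Cy5 and Cy3 signals were printed for only some of these genes. Up to 6 genes of a list were named by size. Members, lists and rules were chosen with earlier results of these data known. Steps were tested on a simulated copy of the untreated array with added noise and changed Cy5 signals. That copy held no shared shift of both channels and no change of the reference beyond noise, so it cannot speak to these. Results were recomputed under 11 other settings and 1 added after seeing the data. Tables were made with pandas 2.3.3 and numpy 2.4.6 under Python 3.11.15, and plots with matplotlib 3.10.9.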

Additional observations from a re-analysis of the deposited data

How the results depend on the processing

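Subunit medians, the median of the immunoproteasome genes and the counts past 0.5 and 1 were recomputed under 11 other settings. A further 1 was added after seeing the data. Of these values, 193 stayed close to those reported (medians within the spot SD of 0.10 to 0.11, counts within 1.5 times) and 23 moved. Some of the 193 were fixed in advance, because quantile normalization of the mean intensity between arrays leaves every ratio as it was. The deposited ratio is, to rounding, that of the processed signals, so these 2 settings are not separate checks. Centring arrays on the median in place of loess put the 1 h median at 1.03 for all subunits and 1.06 for the immunoproteasome genes, with all measured genes at 0.86; 23 subunits were then higher by 1, 41 higher by 0.5 and 0 lower by 0.5. At 6 h it gave -0.10 for all subunits and -0.27 for the immunoproteasome genes, with all measured genes at -0.15 and 2 subunits lower by 0.5. Cy5 without the reference gave 2 subunits higher and 4 lower by 0.5 at 1 h. At 4 h it gave 4 higher by 0.5 and 2 lower by 1. At 6 h it gave 3 higher by 0.5, 6 lower by 0.5 and 2 lower by 1. The immunoproteasome medians were then 0.12 and 0.40 at 4 and 6 h, with all measured genes at 0.05 and 0.04. Processed signals, the deposited ratio and no background correction each put 1 subunit above 0.5 at 6 h. The share of all measured genes past these sizes is not given for these settings. The counts therefore describe the settings and are no result about the subunits. Keeping only subunits whose Cy3 signal moved by under 0.5, the alternative added after seeing the data, left 0 lower by 0.5 at each time, over 38, 36 and 32 subunits at 1, 4 and 6 h. That 0 was set by the filter, which dropped Psmb9 at each time and Psmc5 at 4 h. Their Cy3 levels had moved by 0.68, 1.06 and 1.00 for Psmb9 and by -0.76 for Psmc5. Psmb9 turned to 0.46 at 1 h with median centring, and to 0.17, 0.53 and 0.40 at 1, 4 and 6 h with Cy5 alone. Among differences of at least 0.5 these 4 were the ones that changed sign. Of the other values of named subunits 530 moved by less than the spot SD and 88 by more. Of the 88, 35 came with Cy5 alone and 33 with median centring. At any size, 20 of 53 named values changed sign with Cy5 alone, 14 with median centring and 3 each with processed signals and the deposited ratio. Those past the spot SD on both sides were, with Cy5 alone, 10 values of Psmb9, Psma3 and Psmb2 at each time and Psmc1 at 6 h, and with median centring 4 values at 1 h, of Psmb9, Psma3, Psmc5 and Psmd1. No cause was tested. No paired analysis was possible because each group had 1 array. Dim probes limit what can be read of Psma8, Psmb11 and Psmg2, and the offset of 50 shrinks differences of dim spots.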

Other observations

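Ubb, a polyubiquitin gene of the list above, was named after its values were seen. Its log2 difference was -0.29 at 4 h and -0.19 at 6 h, while its Cy5 signal was 22140 in untreated cells and 258.6 and 299 at 4 and 6 h, and its Cy3 signal 20630 on the untreated array, then 309 and 317.6 on the others. These values leave out the other of its 2 probes. Like the Psmc2 probe, the Ubb probe read here was bright in both channels of the untreated array. It was dim in both channels of the later ones, and the ratio carried little of this.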
